A study of Mus musculus with 9 samples.

Results

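The 10 genes described here encode serpins of clade A, namely Serpina1a, Serpina1b, Serpina1c, Serpina1d, Serpina1e, Serpina3k, Serpina3m, Serpina3n, Serpina6 and Serpina10. They were taken by symbol from a liver expression table of 55253 gene symbols, of which 24607 had reads and 14759 were tested, all 10 serpins among them. The set was chosen by gene family and with the levels and group differences of this same table known, with no threshold on a value. The comparison asked how a Western diet (a fat- and sugar-rich feed) given together with alcohol changed the liver transcriptome of male C57Bl/6J mice. The WD+alcohol group (n = 5) received this diet and 10% alcohol in sweetened water from the age of 10 weeks for 23 weeks, and the control group (n = 4) received chow and tap water over the same time. No genetic change was made in either group, and since diet, alcohol and sweetening were given together, the comparison measures their joint effect.

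Serpins are secreted or intracellular proteins that trap a protease by offering it an exposed reactive centre loop as bait, and the residues of that loop decide which protease is caught. Mice carry several copies of the gene for α1-antitrypsin, the main plasma inhibitor of neutrophil elastase, and an expanded set of copies of the gene for α1-antichymotrypsin, the Serpina3 genes. Hepatocytes are the main source of most of these plasma proteins. Serpina6 (corticosteroid-binding globulin) and Serpina10 (protein Z-dependent protease inhibitor) belong to the same clade, and Serpina6 carries glucocorticoids instead of trapping proteases.

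In the loop the 5 Serpina1 copies differ in sequence. Over the 1239 aligned bases of the coding sequence any 2 of them were between 96.3% and 98.5% identical (GENCODE M21 transcripts, build GRCm38). The annotated coding sequence of Serpina1a is longer, at 1308 bases. The stretch below codes for the loop, from its conserved hinge onwards, and holds 66 bases. Capitals mark the 15 positions at which the 5 genes are not all the same.
Serpina1a: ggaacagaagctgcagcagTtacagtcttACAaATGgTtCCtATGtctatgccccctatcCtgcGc
Serpina1b: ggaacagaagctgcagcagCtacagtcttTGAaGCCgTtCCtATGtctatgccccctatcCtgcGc
Serpina1c: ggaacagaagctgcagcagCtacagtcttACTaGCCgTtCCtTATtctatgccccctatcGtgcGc
Serpina1d: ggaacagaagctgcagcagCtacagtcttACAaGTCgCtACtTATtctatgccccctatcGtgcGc
Serpina1e: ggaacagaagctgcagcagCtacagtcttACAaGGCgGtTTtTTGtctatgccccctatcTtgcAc
In this stretch Serpina1e differed from each of the other 4 at 8 to 10 positions. The other 4 differed from one another at 4 (Serpina1c and Serpina1d) to 9 positions. The pairs at 9 were Serpina1a with Serpina1c, Serpina1a with Serpina1d, and Serpina1b with Serpina1d, so such a distance was not particular to Serpina1e.

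Only the 3′ end of each transcript was sequenced, so a count does not grow with transcript length. Levels of different genes can then be compared on the deposited scale of TMM-scaled CPM (reads of a gene relative to all reads of its library). Near-identical copies are an exception, since they may lose or share reads to unlike degrees. How well near-identical copies can be told apart depends on those ends. In the last 400 bases of the annotated transcripts, Serpina1e was 93.5% to 94.5% identical to the other 4 copies, which were 95% to 96.5% identical to one another. Of all windows of 75 bases in that end, 99.1% were found in no transcript of another gene for Serpina1e, 89.0% for Serpina1b, 79.4% for both Serpina1c and Serpina1d, and 71.8% for Serpina1a. With windows of 50 bases these figures fell to 81.2% for Serpina1e and 45.3% for Serpina1a. The 3 Serpina3 genes, Serpina6 and Serpina10 had no window of 50 bases in common with another gene. Values of Serpina1a to Serpina1d could therefore share reads among themselves more than Serpina1e could. The order of the Serpina1 copies by level and their shares of the sum, given below, carry this limit. The read length, and how reads with several matches were treated, are not given in the sources used here.

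Between 3635860 and 6643645 reads fell in genes per library, the fewest in WD+alcohol 1 and the most in WD+alcohol 4. Each member had at least 120 reads in every library, so counting error was small beside the spread between mice for most members. It was a larger part for Serpina10, with 373 reads at its lowest and an SD of 10.2% of the mean with WD+alcohol. Hepatocyte markers were present in all libraries, and their summed level ran from 32256 to 45659 CPM with WD+alcohol and from 48622 to 71066 CPM in controls, with 2 of 8 tested markers called lower by limma-trend and edgeR (Alb and Apoa1), 4 by DESeq2 (also Ahsg and Cps1) and 6 lower at an unadjusted p under 0.05. Over all tested genes, 12.2% had an unadjusted p under 0.05 in limma-trend, the share to set beside each such count of a list. All 8 macrophage markers were called higher by limma-trend, edgeR and DESeq2 (summed 519 to 820 against 189 to 304 CPM). Neutrophil marker sums were 21.0 to 42.2 against 9.45 to 22.7 CPM with 0 of 3 tested markers called by limma-trend or edgeR, 1 by DESeq2 (S100a9) and 2 at an unadjusted p under 0.05. Stellate and fibroblast marker sums were 4542 to 5309 against 4415 to 5124 CPM, with 1 of 8 tested markers called higher by limma-trend, edgeR and DESeq2 (Dcn, mean 163 against 93.0 CPM). Endothelial marker sums were 141 to 177 against 89.3 to 153 CPM, cholangiocyte 212 to 257 against 217 to 235 CPM and lymphocyte 186 to 228 against 178 to 233 CPM. In these 3 lists 0 markers were called by limma-trend, edgeR or DESeq2, and 4 of 7, 1 of 4 and 1 of 3 tested were higher at an unadjusted p under 0.05. Pancreatic acinar marker sums were 5.61 to 9.21 against 11.4 to 25.0 CPM, with the 1 tested marker, Cela1, called lower by limma-trend, edgeR and DESeq2, while Cela2a, Prss1 and Amy2a5 were at 0 reads in all libraries. The part of these cell type markers in the members' differences was not tested. In bulk liver, fewer hepatocytes and less RNA per hepatocyte cannot be told apart.

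Because of how the members were chosen, their differences are given as a description, with no test. In the fit across all 14759 genes (limma-trend, adjusted p under 0.05), 5 of the 10 were called lower, where 0.678% of all tested genes were called lower, or 2.23% of the 1615 with a mean of 100 CPM or more. None was called higher (0 by limma-trend, edgeR and DESeq2, and 0 at an unadjusted p under 0.05), where 1.61% of all tested genes were. Since the choice used this contrast, nothing is read from these counts. The 5 called lower were Serpina1a, Serpina1c, Serpina1d, Serpina1e and Serpina3k, and edgeR and DESeq2 called the same 5 lower. For 4 of them, all but Serpina3k, every WD+alcohol library lay below every control, as was the case for 2.0% of all tested genes, and 5.34% had groups that did not overlap in either direction. The median difference over the 10 was -0.58 on the log2(CPM + 1) scale, against -0.001 over all genes. Together the 10 genes made up 2.21% to 2.92% of all values of a control library and 0.98% to 1.97% of a WD+alcohol library.

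**Figure D1:**
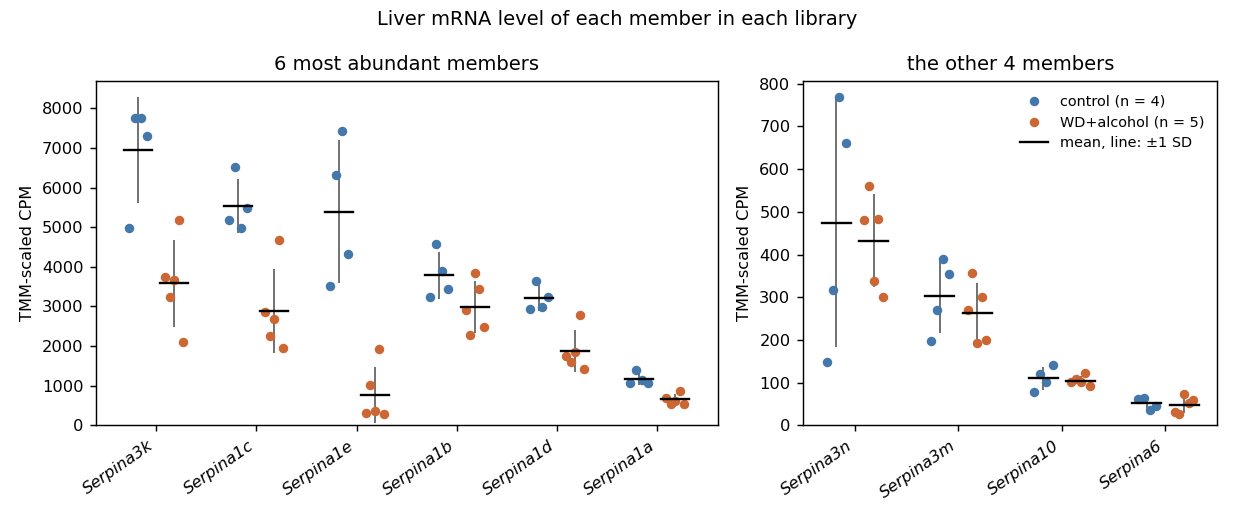
Level of each of the 10 genes in each library, in TMM-scaled CPM on linear axes that start at 0; points are libraries, horizontal bars group means and vertical lines 1 SD either side. The 5 WD+alcohol points of Serpina1e lie between 291 and 1924 CPM, below the 4 control points at 3522 to 7433 CPM, while the points of Serpina3n, Serpina3m, Serpina10 and Serpina6 overlap.

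Serpina1e had the widest gap. It stood at 308, 1012, 358, 1924 and 291 CPM in WD+alcohol libraries 1 to 5 and at 3522, 6304, 7433 and 4314 CPM in controls 1 to 4. WD+alcohol 1, 3 and 5 lay close together at the bottom, WD+alcohol 2 and 4 were higher, and all controls lay above both. The means were 779 ± 708 CPM (SD, n = 5) and 5393 ± 1794 CPM (SD, n = 4), a 6.93-fold lower level, with a log2 difference of -3.17 ± 0.48 (SE; 95% interval -4.20 to -2.13). The SD was 90.9% of the mean with WD+alcohol and 33.3% in controls, where the median over the 1615 genes of 100 CPM or more was 8.19% and 8.18%.

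Serpina1c, Serpina1d and Serpina1a, further α1-antitrypsin copies, showed smaller gaps. Serpina1c was at 2872, 2252, 2676, 4681 and 1950 CPM with WD+alcohol and at 5171, 6521, 4986 and 5474 CPM in controls, a mean 1.92-fold lower (log2 difference -1.001 ± 0.20, SE). Serpina1d was at 1752, 1591, 1845, 2778 and 1425 CPM against 2942, 3655, 2991 and 3245 CPM, 1.71-fold lower (-0.81 ± 0.16). Serpina1a, the least abundant copy in controls, was at 703, 531, 614, 875 and 551 CPM against 1083, 1393, 1156 and 1072 CPM, 1.80-fold lower (-0.86 ± 0.14). In all 3 genes WD+alcohol 4 came nearest to the controls and the groups did not overlap.

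Serpina1b stood apart from the other copies. Its values were 2910, 2291, 3851, 3445 and 2480 CPM with WD+alcohol and 3236, 4564, 3889 and 3453 CPM in controls. WD+alcohol 3 and 4 lay inside the range of the controls, and the gene was not called, with a log2 difference of -0.35 (95% interval -0.69 to -0.01). With it, 6 members were lower at an unadjusted p under 0.05 in limma-trend, where 12.2% of all tested genes passed in either direction.

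Reads shared only among the 5 Serpina1 genes leave their sum unchanged however they were split, but would be missing from it if they were not counted. Some windows of 50 bases in each of these genes were also shared with Gm8893, a gene outside the sum, or with another copy. The sum was 8544, 7677, 9345, 13703 and 6696 CPM with WD+alcohol and 15953, 22437, 20455 and 17559 CPM in controls. The means were 9193 ± 2707 (SD, n = 5) and 19101 ± 2901 CPM (SD, n = 4), 2.08-fold lower. Serpina1e held 46.6% of the difference between these means. Without Serpina1e the sum was still lower in every WD+alcohol library (6405 to 11779 CPM) than in every control (12431 to 16133 CPM).

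Inside the sum, the parts shifted. Serpina1e made up 3.602%, 13.2%, 3.83%, 14.04% and 4.34% of it in WD+alcohol libraries 1 to 5 and 22.1%, 28.1%, 36.3% and 24.6% in controls 1 to 4. Serpina1b made up 33.5% ± 6.24 (SD, n = 5) with WD+alcohol and 19.8% ± 0.62 (SD, n = 4) in controls, with WD+alcohol libraries at 25.1% to 41.2%. Serpina1d made up 20.5% ± 0.56 against 17.0% ± 1.86, Serpina1c 31.0% ± 2.68 against 29.3% ± 3.54 and Serpina1a 7.27% ± 0.90 against 6.19% ± 0.47. The ratio of Serpina1e to Serpina1b within a library, which scaling between libraries does not touch, was 0.093 to 0.559 with WD+alcohol and 1.09 to 1.91 in controls. Every control had more Serpina1e than Serpina1b, and every WD+alcohol library had less.

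**Figure D2:**
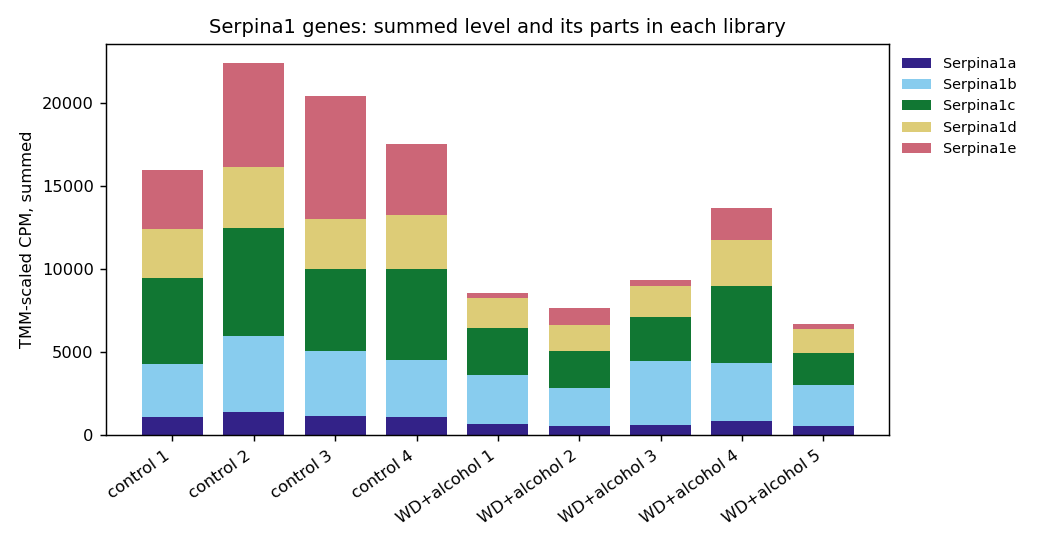
Stacked bars of the summed level of the 5 Serpina1 genes in each library, in TMM-scaled CPM, with 1 colour per gene. Control bars reach 15953 to 22437 CPM and WD+alcohol bars 6696 to 13703 CPM, and the Serpina1e part at the top shrinks from 22.1% to 36.3% of a bar to 3.602% to 14.04%.

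The order of the members' levels changed with these shifts. In controls the means ran from Serpina3k (6947 CPM) through Serpina1c (5538), Serpina1e (5393), Serpina1b (3785), Serpina1d (3208) and Serpina1a (1176) to Serpina3n (474), Serpina3m (303), Serpina10 (110) and Serpina6 (51.8 CPM). The ranges of neighbours overlapped from Serpina3k down to Serpina1d and between Serpina3n and Serpina3m, and the other steps separated all 4 controls. Compared inside each library, Serpina1e was above Serpina1b and Serpina1b above Serpina1d in all 4 controls. The other overlapping steps held in 3 of 4. With WD+alcohol the means ran Serpina3k (3580 CPM), Serpina1b (2995), Serpina1c (2886), Serpina1d (1878), Serpina1e (779), Serpina1a (655), Serpina3n (432), Serpina3m (264), Serpina10 (105) and Serpina6 (49.0 CPM). There the ranges of all neighbours overlapped except Serpina3m with Serpina10 and Serpina10 with Serpina6. Compared inside each library, Serpina1c was above Serpina1d, Serpina1d above Serpina1e and Serpina3n above Serpina3m in all 5. The other overlapping steps held in 2 to 4 of 5. Among all genes of the table, Serpina3k was the 9th most abundant in controls and the 18th with WD+alcohol, and Serpina1e moved from the 14th place to the 134th.

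Sequence near the annotated start sites is shown for Serpina1b and Serpina1e because, of the Serpina1 copies, these lay furthest apart in their differences. Before both start sites they share a stretch of 200 and 198 bases that differs by 4 substitutions and 2 bases present only in Serpina1b, all marked in capitals. The stretches are from RefSeq promoter windows of GRCm38.p6, minus strand, at chr12:103738190-103738389 for Serpina1b and chr12:103956950-103957147 for Serpina1e, and are written 5′ to 3′.
Serpina1b: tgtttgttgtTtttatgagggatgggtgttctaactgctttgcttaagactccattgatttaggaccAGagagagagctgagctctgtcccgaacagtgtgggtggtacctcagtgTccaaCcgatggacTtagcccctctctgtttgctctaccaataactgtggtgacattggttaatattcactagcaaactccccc
Serpina1e: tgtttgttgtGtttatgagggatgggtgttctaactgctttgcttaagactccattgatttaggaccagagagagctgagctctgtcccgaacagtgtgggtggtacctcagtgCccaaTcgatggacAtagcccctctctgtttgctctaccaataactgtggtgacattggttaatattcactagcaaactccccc
Over all aligned bases of the 300-base windows, Serpina1b and Serpina1e were 98.4% identical (248 bases), the highest of the 10 pairs of Serpina1 genes (91.7% to 98.4%). The pairs were compared over unlike lengths, 238 to 298 bases, with the pairs of Serpina1e the shortest. Letters of 2 kinds were looked for in the 6 windows at hand. The letters TTCNNNGAA, which STAT factors bind, were on neither strand in any of the 6, and in 8.30% of all 32851 promoter windows of that length. GTTAAT, part of the site of HNF1 factors, was in the windows of all 5 Serpina1 genes, both printed stretches included. It was not in that of Serpina3n, and was in 7.1% of all 32851 windows. Binding of these factors was not tested. The table matched 6 of the 10 members, the 5 Serpina1 genes and Serpina3n.

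Serpina3k, also known as contrapsin and an abundant plasma serpin of mouse liver, was at 3736, 3238, 3657, 5175 and 2094 CPM with WD+alcohol and at 4985, 7755, 7761 and 7289 CPM in controls. It was 1.94-fold lower on average (3580 ± 1107, n = 5, against 6947 ± 1327 CPM, n = 4, SD; log2 difference -0.99 ± 0.22, SE). The groups overlapped by 1 library on each side, WD+alcohol 4 and control 1. Its call was lost without any one of WD+alcohol 1, 2, 3 or 5 or control 2, 3 or 4, with log2 differences of -1.02 to -0.81.

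Serpina3m, a close relative whose coding sequence was 92.6% identical to that of Serpina3k, was at 270, 356, 194, 301 and 199 CPM with WD+alcohol and at 197, 270, 389 and 354 CPM in controls. The groups overlapped and it was not called (log2 difference -0.19, 95% interval -0.63 to 0.26). Serpina3n, an acute phase serpin that inhibits granzyme B, was at 481, 560, 339, 484 and 299 CPM with WD+alcohol and at 147, 317, 769 and 662 CPM in controls. All WD+alcohol values lay inside the range of the controls, which spanned 5.22-fold, and the log2 difference was 0.10 (95% interval -0.72 to 0.92). The sign of this difference turned without control 1 (-0.37), and on whole reads with edgeR and DESeq2 (-0.13).

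Summed, Serpina3k, Serpina3m and Serpina3n reached 2593 to 5960 CPM with WD+alcohol and 5329 to 8919 CPM in controls, 1.81-fold lower on average. Serpina3k made up 83.2% ± 3.98 (SD, n = 5) of this sum with WD+alcohol and 90.3% ± 3.40 (SD, n = 4) in controls. Serpina3m made up 4.63% to 8.57% against 3.24% to 4.36%, a higher share in all 5 WD+alcohol libraries than in any control.

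**Figure D3:**
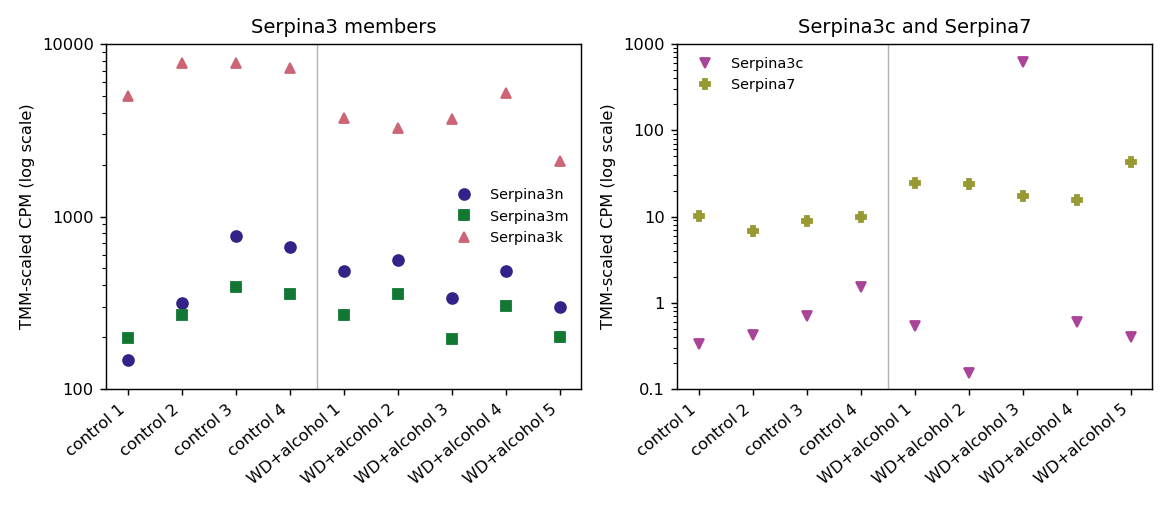
Levels in TMM-scaled CPM on log axes in each library, controls left of the grey line, for Serpina3k, Serpina3m and Serpina3n (left) and for Serpina3c and Serpina7 (right). Serpina3n runs from 147 to 769 CPM among controls, and Serpina3c is at 617 CPM in WD+alcohol 3 and at 1.52 CPM or less in the other 8 libraries.

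Serpina6 was at 32.3, 26.7, 74.3, 53.0 and 58.7 CPM with WD+alcohol and at 60.8, 64.7, 36.5 and 45.3 CPM in controls (log2 difference -0.14, 95% interval -0.70 to 0.42). Serpina10 was at 101, 108, 101, 122 and 93.1 CPM against 77.9, 120, 102 and 140 CPM (-0.04, -0.34 to 0.26). Neither was called, and the groups overlapped for both. WD+alcohol 1 and 2 had the lowest Serpina6 of the 9 libraries, and the spread of Serpina10 with WD+alcohol (SD 10.2% of the mean) was the smallest of the 10 members.

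Since hepatocyte markers were lower and macrophage markers higher with WD+alcohol, the members were also scaled on the 8 hepatocyte markers, an alternative chosen after seeing the data. This scaling moved the median log2 difference of all genes to 0.41. Serpina1e was then at -2.72, Serpina1c at -0.56, Serpina3k at -0.55, Serpina1a at -0.42 and Serpina1d at -0.36. The values of Serpina1b (0.09), Serpina3m (0.25), Serpina6 (0.29), Serpina10 (0.40) and Serpina3n (0.54) were positive on this scale.

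The genes lie in the same cluster on chromosome 12, with other genes of the clade between some of them (order from RefSeq, GRCm38.p6), and neighbours differed in their values. Serpina10 and Serpina6 come first, then Serpina16 and Serpina1f, then Serpina1b, Serpina1d, Serpina1a, Serpina1c and Serpina1e, the 5 with no other gene of the clade between them. Serpina11, the next gene after Serpina1e, was at 36.1 ± 15.0 CPM (SD, n = 5) against 36.2 ± 8.21 CPM (SD, n = 4), with a log2 difference of -0.07 ± 0.25 (SE). Serpina3k, Serpina3m and Serpina3n lie at the far end of the cluster.

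**Figure D4:**
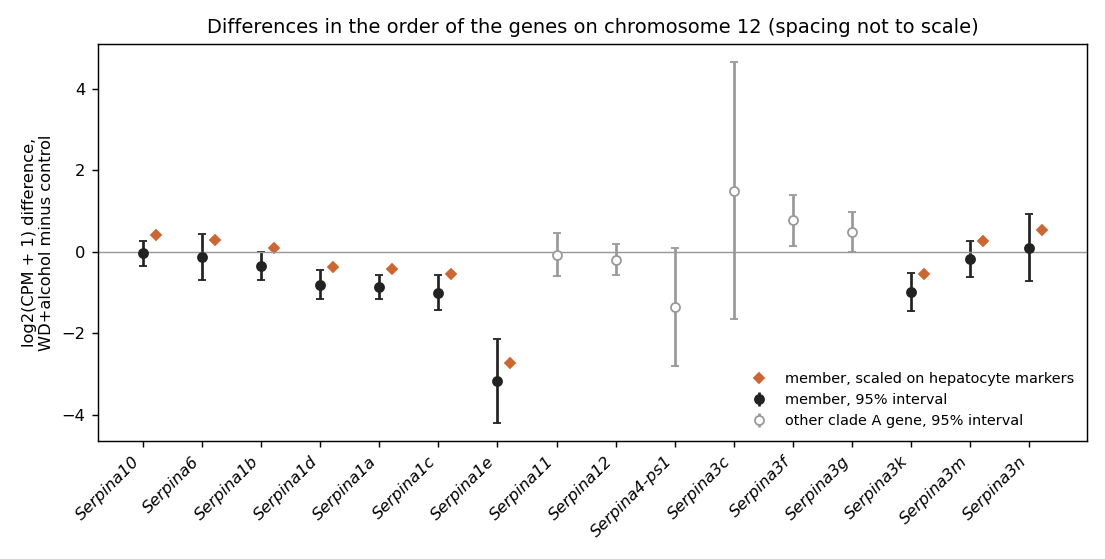
Difference between WD+alcohol and control on the log2(CPM + 1) scale for the tested clade A genes in their order on chromosome 12, with 95% intervals (filled points are the 10 members, open points other genes) and, as diamonds, the members scaled on hepatocyte markers. Serpina1e stands at -3.17 between Serpina1c at -1.001 and Serpina11 at -0.07.

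Of 15 other clade A serpins, 7 were tested, and 1 was called higher and 0 lower by limma-trend, edgeR and DESeq2 (2 higher and 1 lower at an unadjusted p under 0.05), where 2.29% of all tested genes were called in either direction. Serpina7, the X-linked gene of thyroxine-binding globulin, was at 24.5, 23.7, 17.1, 15.6 and 43.0 CPM with WD+alcohol and at 10.2, 6.72, 8.86 and 9.85 CPM in controls. All 5 WD+alcohol libraries lay above all controls (log2 difference 1.303 ± 0.24, SE; limma-trend adjusted p = 0.00965). The interferon-inducible Serpina3g (8.47 ± 2.94 against 5.73 ± 1.71 CPM) and Agt, encoding angiotensinogen (193 ± 27.2 against 240 ± 17.6 CPM), were not called.

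Serpina3c was singled out after its values were seen. It had 3286 reads (617 CPM) in WD+alcohol 3 and between 1 and 8 reads (at most 1.52 CPM) in each of the other 8 libraries. No other gene was as particular to that library, the next being the acyl-CoA thioesterase Acot3 at 89.0 CPM against at most 30.6 CPM elsewhere. WD+alcohol 3 also had the highest Serpina1b (3851 CPM) and Serpina6 (74.3 CPM) of its group.

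Of 13 tested serpins of other clades, 0 were called by limma-trend or edgeR, 3 by DESeq2 (Serpinc1, Serpind1 and Serpine2, all lower) and 4 at an unadjusted p under 0.05. The most abundant, Serping1 (C1 inhibitor), was at 973 ± 155 against 916 ± 164 CPM, and antithrombin (Serpinc1) had a log2 difference of -0.49 ± 0.14 (SE; limma-trend adjusted p = 0.0821). Of 15 tested plasma protease inhibitors that are not serpins, 2 were called lower and 0 higher by limma-trend. With edgeR 1 was called lower (Itih2) and 0 higher, with DESeq2 3 lower (Itih1, Itih2 and Ahsg) and 1 higher (Slpi), and at an unadjusted p under 0.05 4 were lower and 2 higher. The 2 of limma-trend were Itih1 (117 ± 19.4 against 169 ± 30.5 CPM; adjusted p = 0.0491) and Itih2 (245 ± 28.8 against 322 ± 18.4 CPM; adjusted p = 0.0315), heavy chains of the inter-alpha-trypsin inhibitor. The call of Itih1 was lost in 14 of 21 alternatives, among them the fits without WD+alcohol 1, 2, 3 or 5 or control 2, 3 or 4 (limma-trend adjusted p from 0.0705 to 0.138). That of Itih2 was lost in 9, among them the fits without WD+alcohol 2, 3 or 5 or any 1 control (0.0526 to 0.0997), and its sign turned in 1 (0.045 with scaling on hepatocyte markers).

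Among proteases and binding partners of the members, 3 of 8 tested genes were called lower by limma-trend, edgeR and DESeq2. None was called higher by limma-trend or edgeR (0), 1 was by DESeq2 (Prtn3), and 5 were lower and 1 higher at an unadjusted p under 0.05. F11, encoding coagulation factor XI, which Serpina10 inhibits, was at 5.81 ± 1.66 against 17.1 ± 2.05 CPM (log2 difference -1.44 ± 0.18, SE; limma-trend adjusted p = 7.02e-04), lower in all 5 WD+alcohol libraries than in any control. Klkb1, plasma prekallikrein, was at 112 ± 30.4 against 216 ± 35.9 CPM (adjusted p = 0.0123), a call lost with robust limma-trend (0.0790) and with the replicate block (0.162). The elastase Cela1, also the acinar marker above, was at 6.51 ± 0.94 against 17.1 ± 6.37 CPM (adjusted p = 0.0066). Proz, encoding protein Z, the cofactor of Serpina10, was at 55.4 ± 12.3 against 60.4 ± 15.4 CPM and was not called. The neutrophil protease Prtn3 was at 0.60 to 6.06 CPM with WD+alcohol and 0 to 0.42 CPM in controls, with no overlap. The gap was narrow, between WD+alcohol 5 (0.60 CPM) and control 2 (0.42 CPM), where 1 read was worth 0.20 and 0.21 CPM. Prtn3 was called higher by DESeq2 but not by limma-trend (adjusted p = 0.130) or edgeR. Elane and Ctsg, the genes of neutrophil elastase and cathepsin G, were too low to be tested.

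Transcription factors and receptors linked to these genes included 1 called lower of 17 tested and 0 higher by limma-trend, edgeR and DESeq2 (2 lower and 0 higher at an unadjusted p under 0.05). This was the hepatocyte forkhead factor Foxa3, at 42.0 ± 7.01 against 67.8 ± 15.5 CPM (limma-trend adjusted p = 0.0306), a call lost in 10 of 21 alternatives, among them the fits without WD+alcohol 2, 3, 4 or 5 or control 1, 2 or 4 (0.0584 to 0.0948). Log2 differences were -0.35 ± 0.16 (SE) for Hnf4a, 0.05 ± 0.11 for Stat5b, -0.21 ± 0.13 for the growth hormone receptor Ghr and -0.02 ± 0.07 for the glucocorticoid receptor Nr3c1, none of them called. Of 17 tested genes for folding, export and disposal of secretory serpins 0 were called by limma-trend, edgeR or DESeq2 and 4 had an unadjusted p under 0.05, the most abundant being the chaperone Hspa5 (1010 ± 49.1 against 1122 ± 92.9 CPM). Of 12 tested genes that respond to glucocorticoids, the hormones that Serpina6 carries, 0 were called by limma-trend or edgeR, 1 by DESeq2 (Hsd11b1, lower) and 3 at an unadjusted p under 0.05. The most abundant, metallothionein Mt1, was at 2113 ± 1118 against 1984 ± 1966 CPM (log2 difference 0.80 ± 0.70, SE). Its controls were far apart, at 272, 392, 4219 and 3053 CPM in controls 1 to 4. Male-biased hepatocyte genes, a list known from earlier results to be lower here, had 5 of 9 tested genes called lower by limma-trend, 4 by edgeR and 6 by DESeq2, with 7 lower and 0 higher at an unadjusted p under 0.05 and 0 called higher by any of these tools. Among them were the major urinary protein genes Mup21 (26.3 ± 11.4 against 103 ± 24.5 CPM), Mup12 (37.4 ± 25.8 against 237 ± 66.8 CPM) and Mup3 (2433 ± 1236 against 5845 ± 688 CPM) and the fatty acid elongase gene Elovl3 (31.5 ± 13.1 against 101 ± 25.4 CPM). The call of Mup3 was lost with robust limma-trend (adjusted p = 0.131), with the replicate block (0.117) and without WD+alcohol 5 (0.0560), and that of Mup12 with robust limma-trend (0.1098) and the block (0.0645).

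Likeness between genes was measured as Pearson's r of log2(CPM + 1) over the 9 libraries, as a description, since libraries share depth and group. The first genes named for Serpina3n and Serpina1e are also the highest of 10275, and so wide a search over 9 libraries can by itself yield high r. With group means subtracted, so that only differences between mice of one group count, the genes most like Serpina3n among 10275 tested for likeness (5 CPM or more on average) were Lrg1 (r = 0.99), Tmem87b (0.97), Il1r1 (0.96), Arl4a (0.95) and St3gal5 (0.95). Lrg1, an acute phase glycoprotein, was at 394, 734, 1388 and 1387 CPM in controls 1 to 4, and Il1r1, the interleukin-1 receptor, at 14.2, 24.4, 47.8 and 54.0 CPM. Among the controls both were lowest in control 1 and highest in controls 3 and 4, as Serpina3n was. With WD+alcohol Lrg1 was at 1117 to 1803 CPM and Il1r1 at 26.8 to 62.9 CPM, so neither peaked in a control over all 9 libraries. Without subtracting group means, Tmem87b, St3gal5, Il1r1, Cxcl1 and Fbxo42 came first (r = 0.94 to 0.97), and the chemokine Cxcl1 was at 5.93 and 10.7 CPM in controls 1 and 2 against 196 and 133 CPM in controls 3 and 4. Among the members, Serpina3m was most like Serpina3n (r = 0.91 with group means subtracted) and Serpina6 least (-0.64).

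For Serpina1e the values within groups were most like Grem1, Top2b, Itga4, Ptn and Crtc3 (r = 0.94 to 0.96). Their ranges over the 9 libraries were narrow beside that of Serpina1e, with Crtc3 at 27.2 to 34.9 CPM and Top2b at 195 to 223 CPM. Without subtracting group means the first 5 were Crtc3, Atg16l1, Hspa13, Slc25a3 and Klhl42 (0.93 to 0.98). Within groups Serpina1e was more like Serpina1d (0.68), Serpina3k (0.67), Serpina3m (0.64) and Serpina1c (0.62) than like Serpina1b (0.19). WD+alcohol 4 had the highest Serpina1a, Serpina1c, Serpina1d, Serpina1e, Serpina3k and Serpina10 of its group, and it was also the library with the most reads. The part of depth in these levels was not tested.

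One pseudogene of the cluster, Serpina4-ps1, was also picked out after its values were seen. It was at 0.54, 1.38, 0.94, 9.24 and 0.20 CPM with WD+alcohol and at 0.49, 4.62, 13.6 and 11.6 CPM in controls. WD+alcohol 4 and controls 2 to 4 were high and the others low, and the groups overlapped (log2 difference -1.36 ± 0.68, SE; limma-trend adjusted p = 0.449).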

How the data were processed

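Per the labels' protocols, RNA from 9 mouse livers was isolated in Trizol, and a Collibri kit for mRNA 3′ ends gave the libraries. Each library was taken as 1 mouse, since 5 and 4 mice are named in the series' design. The submitters' processing notes name Trim Galore 0.6.0, cutadapt 1.18, STAR, HTSeq 0.11.0 and edgeR 3.28.1 in R 3.6.3, and build GRCm39 (mm39). Strand use and multimapping are not given in the sources used here. The deposited values are a signal, CPM (counts relative to library size) scaled by TMM by the authors. Dividing each column by its lowest positive value gave whole reads for 100% of values (tolerance 1e-06); 1 read was worth 0.152 to 0.270 CPM, and 0 reads allow up to 0.455 to 0.809 CPM (3 reads, counting error only).

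Libraries were grouped by title and columns matched by library name. Values were tested as log2(CPM + 1), two-sided, with limma-trend (limma 3.58.1, R 4.3.3) over genes averaging 1 CPM or more, adjusted by Benjamini-Hochberg over all 14759 genes at 0.05. This log2(value + 1) scale makes changes of low genes look smaller. No 2 libraries agreed within counting noise (chi-square per degree of freedom at least 5.82). The members and lists were chosen with earlier results of these data known. Named were all members, of each list the called genes with the smallest p (at most 4) or else the most abundant, and the 5 genes most like Serpina1e and Serpina3n, leaving out clone-like names; Serpinc1, Serpina3g, Agt, Serpina11, Proz, Prtn3, Elane, Ctsg and the listed factors were added for their role, after their values were seen. Alternatives were other pseudocounts (0.25, 5) and filters (none, 5 CPM), scalings, robust limma-trend, a replicate block, leave-one-out fits, and, on recovered reads, edgeR 4.0.16 and DESeq2 1.42.0.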

Additional observations from a re-analysis of the deposited data

Results flagged for a closer look

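Libraries far from the rest of their group were looked for in 62 groups of values (the 10 members, the genes named by rule from each list, both sums and the shares of the Serpina1 genes, in each group), and 3 were found, where chance gives about 1 in 20. Serpina3c was looked at because its far library had already been seen, so it is not counted among them. It was at 617 CPM in WD+alcohol 3, and the next highest WD+alcohol library was at 0.61 CPM. Serpina3k was at 4985 CPM in control 1, and the next lowest control was at 7289 CPM. Itih1 was at 150 CPM in WD+alcohol 4, and the next highest library of that group was at 113 CPM. Foxa3 was at 54.4 CPM in WD+alcohol 1, and the next highest was at 39.98 CPM.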

How the results depend on the processing

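Of the 10 members, 5 were called, and this number was 2 with no filter on low values (Serpina1a and Serpina1e), 1 with robust limma-trend (Serpina1a), 1 with the replicate block (Serpina1e), 3 with scaling on hepatocyte markers (Serpina1c, Serpina1e and Serpina3k), and 2 to 5 when 1 library was left out. It was 2 (Serpina1a and Serpina1e) without WD+alcohol 5 and without control 2. The number stayed at 5 with pseudocounts of 0.25 and 5, the 5 CPM filter, all libraries rescaled to one total and median-of-ratios scaling. It was also 5, the same genes, with edgeR and DESeq2, and 4 with quantile normalization (all but Serpina3k). The log2 difference of Serpina1e ran from -3.60 to -2.72 over 21 alternatives, and its call was lost with robust limma-trend alone. With scaling on hepatocyte markers the Serpina1 sum was at a log2 ratio of -0.63 (-1.06 with the deposited scaling) and the Serpina3 sum at -0.41 (-0.85). Over all genes, 238 were called higher and 100 lower. The numbers were 365 higher with all libraries rescaled to one total, 370 higher and 175 lower with DESeq2, 3889 higher with scaling on hepatocyte markers, 76 higher and 36 lower with the replicate block, and 139 to 264 higher and 59 to 123 lower with 1 library left out (139 and 62 without WD+alcohol 5, 148 higher without control 1, 59 lower without control 2). No pairing of the libraries by replicate number was seen. Deviations from group means correlated at -0.008, -0.31, -0.21 and -0.015 for numbers 1 to 4, though so few pairs cannot exclude a pairing. WD+alcohol 5 has no partner and drops out of the block. Signs turned only for values that were not called or lost their call. With scaling on hepatocyte markers they were 0.091 for Serpina1b, 0.25 for Serpina3m, 0.29 for Serpina6, 0.40 for Serpina10, 0.045 for Itih2 and 0.29 for Hspa5. Serpina3n turned to -0.13 with edgeR and with DESeq2, and to between -0.37 and -0.0036 without WD+alcohol 2, control 1 or control 2 (-0.37 to 0.42 with any 1 library left out). Serpina10 turned to 0.014 with one total, 0.00026 with the block, and between 0.00026 and 0.086 without WD+alcohol 5, control 2 or control 4 (-0.19 to 0.086 with any 1 left out). Serpina6 turned to 0.050 without WD+alcohol 2, and Serping1 to -0.0016 without control 1 (-0.0016 to 0.17). The causes were not tested.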
